A study of Mus musculus with 2 samples.

Results

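The genes described here are Rps18, Nsun5, Bzw2, Dazap1 and Nup54, 5 genes of cytosolic translation and RNA handling among the 170 of the deposited table. They were picked by symbol for what their proteins do, from a table whose values were already known. RNA of mouse forebrain tissue was recovered in 2 ways: on BG4, a His-tagged antibody to G-quadruplexes, and on normal rabbit IgG as the control, an antibody without a set target. Each antibody gave 1 library of total RNA, so there were no replicates, no spread between samples and no test across samples. The labels give no strain, age, sex or number of mice, and no genotype or treatment. A G-quadruplex is a fold in which 4 runs of guanine line up as stacked squares.

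The values were taken to be FPKM, which are fragments scaled to transcript length and library size. The table was a selection in which each of the 170 genes was higher with BG4, so the direction of every gene below was fixed by that selection. Read depth is unknown. None of 25 marker genes of neurons, glia, endothelial cells and forebrain (0 of 25) was among the 170 genes, so the labelled tissue could not be checked from the table. In bulk tissue, fewer cells of a type and less RNA per cell cannot be told apart.

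The 5 genes act at different points of RNA handling and translation. Nup54 belongs to the channel of the nuclear pore, through which mRNA leaves the nucleus. It sits there with Nup58 and Nup62, and its phenylalanine-glycine repeats form part of the selective barrier. Dazap1 is an RNA-binding protein of the hnRNP type that acts in splicing and in translation. Bzw2 resembles the initiation factor eIF5 and regulates translation initiation. Rps18 is a protein of the head of the small ribosomal subunit, and Nsun5 methylates a cytosine of the large subunit's ribosomal RNA. Guanine-rich stretches in an mRNA are studied in this setting because folded structures near the start codon can slow initiation.

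The transcripts were first searched for a sequence pattern of putative G-quadruplexes, the fold that BG4 is meant to find. Folding itself was not measured. A putative motif was defined as 4 runs of 3 or more G, separated by loops of 1 to 7 bases of any kind. Matches did not overlap each other, and sequences are written as DNA, with T for U. In the longest annotated transcript of each gene, Dazap1 held 2 motifs, Rps18 held 1, and Nsun5, Bzw2 and Nup54 held 0. All motifs found in any annotated transcript of the 5 genes follow, with the runs of 3 or more G in capitals. In mm10, the first Dazap1 motif lies at chr10:80265122-80265145 on the plus strand, in the 5′ UTR, with 4 bases between its end and the start codon. The second lies at chr10:80288117-80288138, in the 3′ UTR of the same transcript. The Rps18 motif lies at chr17:33954040-33954063 on the minus strand.
Dazap1 5′ UTR motif: GGGGcgcagcGGGccGGGacGGGG
Dazap1 3′ UTR motif: GGGttcGGGtgtGGGaagcGGG
Rps18 motif: GGGaggtGGGtggtGGGtattGGG

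The Rps18 motif was found only in 1 of 11 annotated transcripts, a processed transcript without a coding part. In the coding transcript of Rps18 the same bases are intron. Dazap1 differed in that both motifs were in exons of its coding transcript, and 3 of its 7 annotated transcripts held a motif. On the opposite strand of the longest transcripts, Dazap1 held 1 motif and the other 4 genes held 0. Among all 21951 annotated protein-coding genes, 19% had at least 1 motif in the longest transcript, and of the 163 protein-coding genes with deposited values, 19.6% had one. Of 3983 genes with a transcript within 20% of the length of Dazap1, 14.3% had at least 1. For the 2131 genes of a length like that of the longest Rps18 transcript, which has 1151 bases and is non-coding, the share was 6.52%.

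For each gene, with or without a motif, the most guanine-rich stretch was also taken. The G4Hunter score gives each G the length of its run, to a maximum of 4, gives each C the same with a minus sign and averages over 25 bases, so a positive value marks guanine on the RNA strand. The highest-scoring window of each principal coding transcript follows, with runs of 2 or more G in capitals. In Nsun5 and Bzw2, 2 windows shared the top score, and the first is given. The windows of Nup54, Rps18 and Nsun5 lie in coding sequence, and those of Bzw2 and Dazap1 in the 3′ UTR. In mm10, the Nsun5 window lies at chr5:135371263-135371287 (plus strand, exon 3 of 10) and the Bzw2 window at chr12:36092196-36092220 (minus strand, exon 12 of 12). That of Dazap1 lies at chr10:80287796-80287820 (plus strand, exon 12 of 12). Windows of the other genes cross a splice junction: Nup54 joins chr5:92435004-92435008 to chr5:92431103-92431122, and Rps18 joins chr17:33955078-33955083 to chr17:33952573-33952591, both on the minus strand.
Nup54, score 1.32: GGcGGGtGGGtttGGaGGatttGGa
Bzw2, score 1.32: GGGaatgctgaagcgtttGGGGaGG
Dazap1, score 1.76: gacctGGGGGGaGGGGcagcGGaGG
Rps18, score 1.2: attaaGGGcgtGGGGcGGagatatg
Nsun5, score 2.24: tGGGGaaGGGGtttcgaGGGGGtGG

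Nsun5 had the highest score of the 5, with 16 G among 25 bases. Its window has 3 runs of 4 or 5 G, but the last run in it has only 2, so it does not meet the motif definition. In Nup54, none of the 6 G runs in the window exceeds 3 bases. The Nup54 window covers codons 21 to 29, near the start of the protein. The first part of that protein is rich in phenylalanine-glycine repeats, and glycine codons begin with GG. A link of these codons to the window was not tested. The maximum score of the Nsun5 transcript stood above that of 90.1% of all protein-coding genes, and that of Nup54 above 35.6%. For Dazap1 the figure was 70.9%. In Rps18 and Bzw2 the longest annotated transcript is non-coding and scored higher (1.76 and 2.04) than the coding transcript.

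**Figure D1:**
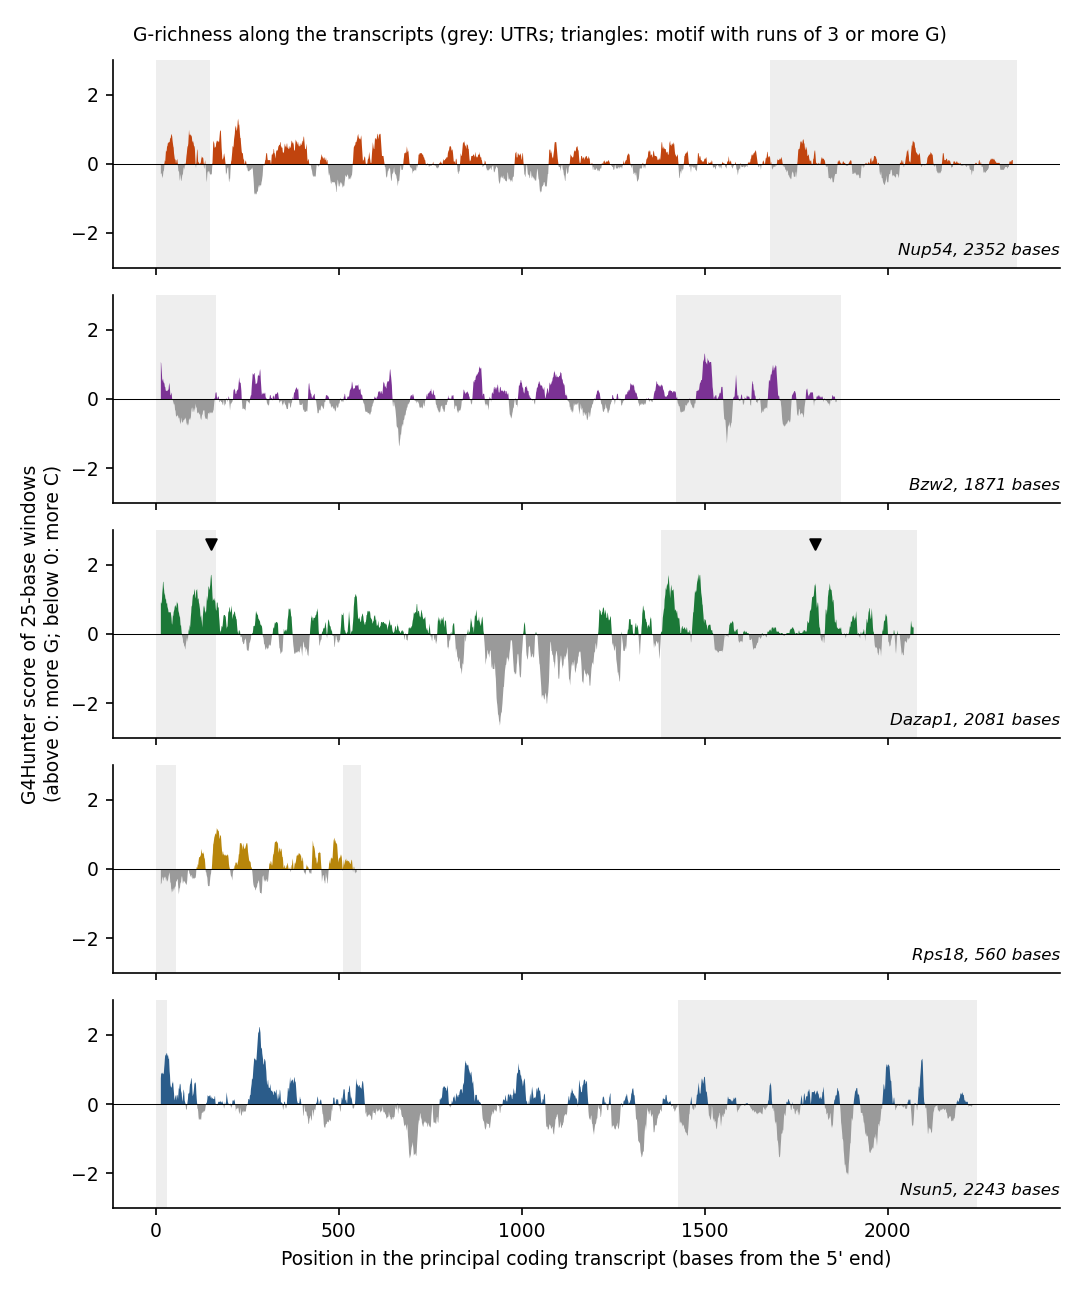
G4Hunter score (25-base windows, no unit) against position in bases from the 5′ end, for the principal coding transcript of each gene, with UTRs in grey and motifs as triangles. Only Dazap1 carries triangles among these 5 coding transcripts, 1 in each UTR, and its coding part falls to a score of -2.64, while Nsun5 has the tallest peak, 2.24.

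Dazap1 also had the highest GC content of the 5 genes, with Nsun5 not far below it. Its transcript had 57.95% GC, above that of 90.95% of protein-coding genes, whereas Nup54 had 45.5%, above 34.4%. Nsun5, Rps18 and Bzw2 lay between them at 55.4%, 51.1% and 50.2% in their longest transcripts. Motifs with runs of only 2 or more G numbered 19 in Dazap1, 8 in Nup54, 6 in Nsun5 and 5 each in Bzw2 and Rps18, whose longest transcripts are non-coding. In their coding transcripts, Bzw2 held 3 and Rps18 held 1, with a GC content of 48.6% and 54.3%. The median was 4 among genes of a length like that of Dazap1 and 5 among those like Nup54. Of the Dazap1-length genes, 99.5% had fewer than 19. The coding part of Dazap1 also held the most cytosine-rich window of these coding transcripts, with a score of -2.64 at bases 927 to 951. The Dazap1 protein is known for a proline-rich end, and proline codons begin with CC. A link of these codons to the window was not tested.

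The recovery of the 5 transcripts with BG4 is given next, starting at the nuclear pore and ending at the ribosome. Nup54 had 207 FPKM with BG4 and 0.103 FPKM with IgG. Dazap1 had 14.4 FPKM with BG4 and 0.131 FPKM with IgG. The IgG values of these genes were close together and both were below the table's IgG median of 0.143 FPKM, while their BG4 values were far apart. Bzw2 had 67.4 FPKM with BG4 and 0.0463 FPKM with IgG, the lowest IgG value of the 5. Rps18 had 9.66 FPKM with BG4 and 0.527 FPKM with IgG. Nsun5 had 17.9 FPKM with BG4 and 3.65 FPKM with IgG. For every one of the 5 the BG4 value was the higher, as for all 170 genes. Every BG4 value of the 5 was above their highest IgG value, 3.65 FPKM. The lowest BG4 value of the whole table, 3.76 FPKM, was above it too, so this does not set the 5 apart.

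**Figure D2:**
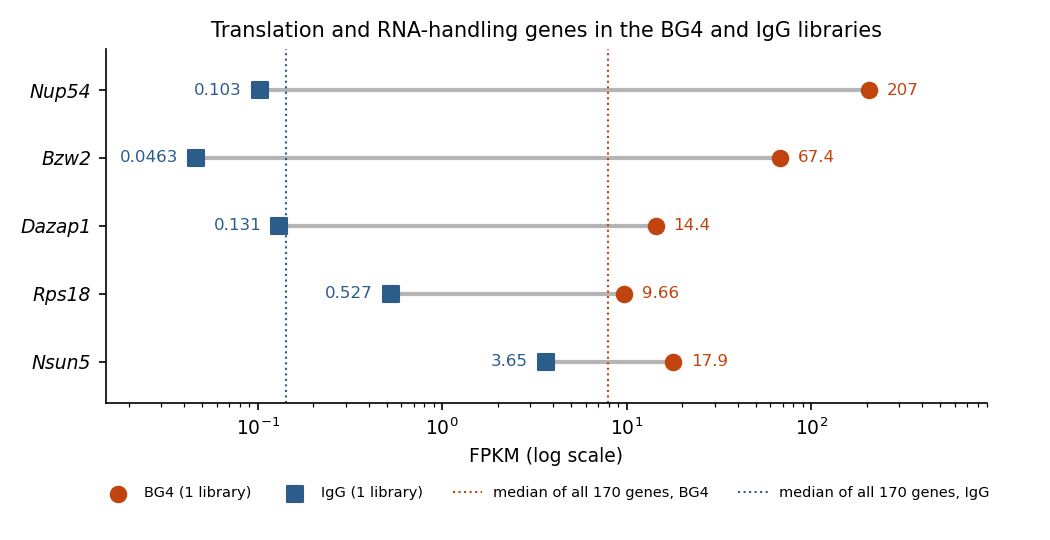
FPKM (log scale) of each gene in the BG4 library (circles) and in the IgG library (squares), 1 library each, with the medians of all 170 genes as dotted lines. All 5 BG4 values, from 9.66 to 207, lie right of the BG4 median of 7.88, while 3 IgG values lie left of the IgG median of 0.143 and those of Rps18 and Nsun5 right of it.

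The folds of BG4 over IgG, without a pseudocount, were 2011 for Nup54, 1454 for Bzw2, 109.55 for Dazap1, 18.3 for Rps18 and 4.89 for Nsun5. They spanned 412 times from lowest to highest. Across the 5 genes the IgG values spanned 78.8 times and the BG4 values 21.4 times. Against the table's medians, Nup54 had 26.2 times the median BG4 value and 0.718 times the median IgG value. Bzw2 had 8.55 times the BG4 median and 0.324 times the IgG median. For Dazap1 the multiples were 1.82 for BG4 and 0.916 for IgG. Rps18 stood near the BG4 median, at 1.23 times, and at 3.68 times the IgG median. Nsun5 was at 2.27 times the BG4 median and 25.5 times the IgG median, so its small fold went with a high IgG value and not with a low BG4 value.

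In rank among the 170 genes, Nup54 ranked 4 by BG4 value and 105 by IgG value. Bzw2 ranked 10 by BG4 and 152 by IgG, and Dazap1 ranked 43 and 90. Rps18 ranked 73 by BG4 and 36 by IgG, and Nsun5 ranked 35 and 2. By fold, without Timm10b, whose IgG value was close to 0, Nup54 and Bzw2 ranked 2 and 3 of 169 genes, Dazap1 47, Rps18 138 and Nsun5 169. The 5 genes thus included folds from near the top of the table to its lowest.

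**Figure D3:**
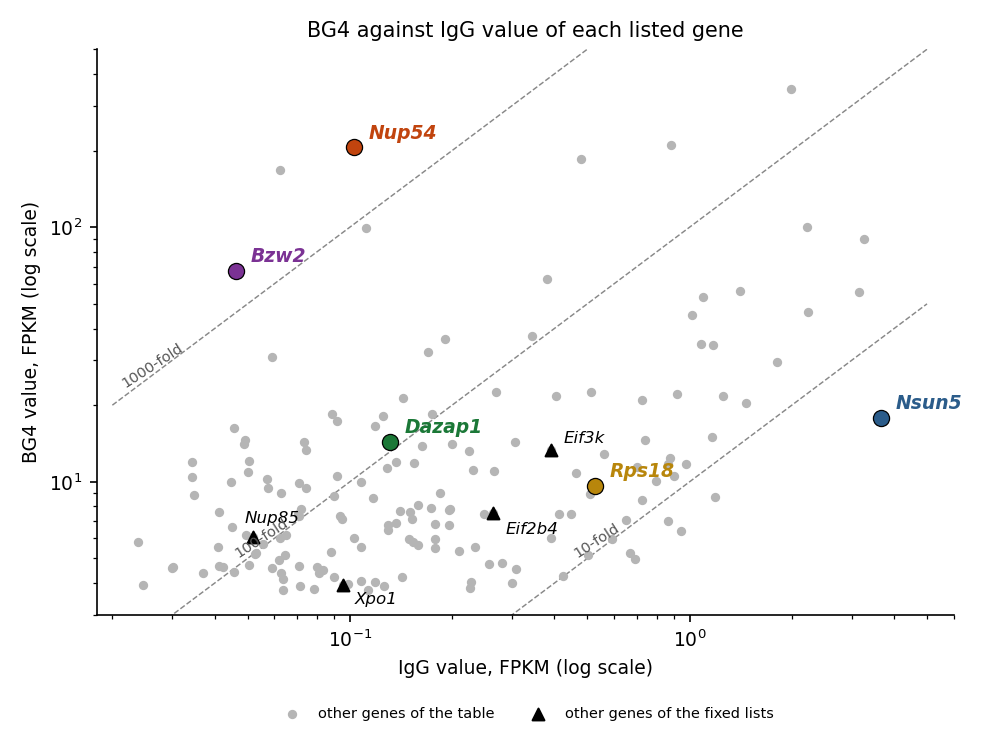
BG4 value against IgG value in FPKM (both log scales) for the genes of the table, with lines of equal fold. The 5 genes are in colour and 4 other genes of the pathway lists are triangles. Ccdc107 (values off the scale) and Timm10b are not drawn. Nup54 and Bzw2 lie above the 1000-fold line, Dazap1 just above the 100-fold line, Rps18 above the 10-fold line and Nsun5 below it.

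With a pseudocount of 1 FPKM added to both values, the log2 ratio of BG4 to IgG was 7.56 for Nup54, 6.03 for Bzw2, 3.76 for Dazap1, 2.80 for Rps18 and 2.02 for Nsun5. This scale gives smaller ratios than the folds for genes with low values. The folds of Nup54 and Bzw2 divide by IgG values of 0.103 and 0.0463 FPKM, from 1 library of unknown depth. The median was 3.76 over the 5 genes and 2.87 over all 170. All 5 exceeded 2-fold on this scale, as did 100% of the table, and all 5 exceeded 4-fold, against 96.5% of the table. At 100-fold or more without a pseudocount stood 3 of the 5, Nup54, Bzw2 and Dazap1, against 32% of 169 genes. BG4 values reached 10 FPKM for 4 of the 5, against 41.2% of the table, and the IgG value reached 1 FPKM for 1 of the 5, against 10%. The genes were chosen from this same contrast, and nothing follows from these shares.

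The order by fold was not the order of the authors' test. In the authors' deposited table, the p-value was lowest for Dazap1 (0.001), followed by Nup54 (0.00315), Bzw2 (0.00705), Rps18 (0.0218) and Nsun5 (0.0484). The q-value in the authors' deposited table was 0.0432 for Dazap1, 0.0818 for Nup54, 0.129 for Bzw2, 0.232 for Rps18 and 0.334 for Nsun5. Only Dazap1 of the 5 was under 0.05 by the authors' deposited q, against 8.24% of the table. Nsun5 had the second-highest p of the table, next to the maximum of 0.04865 in the authors' deposited table. Every one of the 170 genes was thus under 0.05 by the authors' p, so a p under 0.05 does not set the 5 apart. That test compares 2 libraries, not the antibodies, and it has no replicate check.

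**Figure D4:**
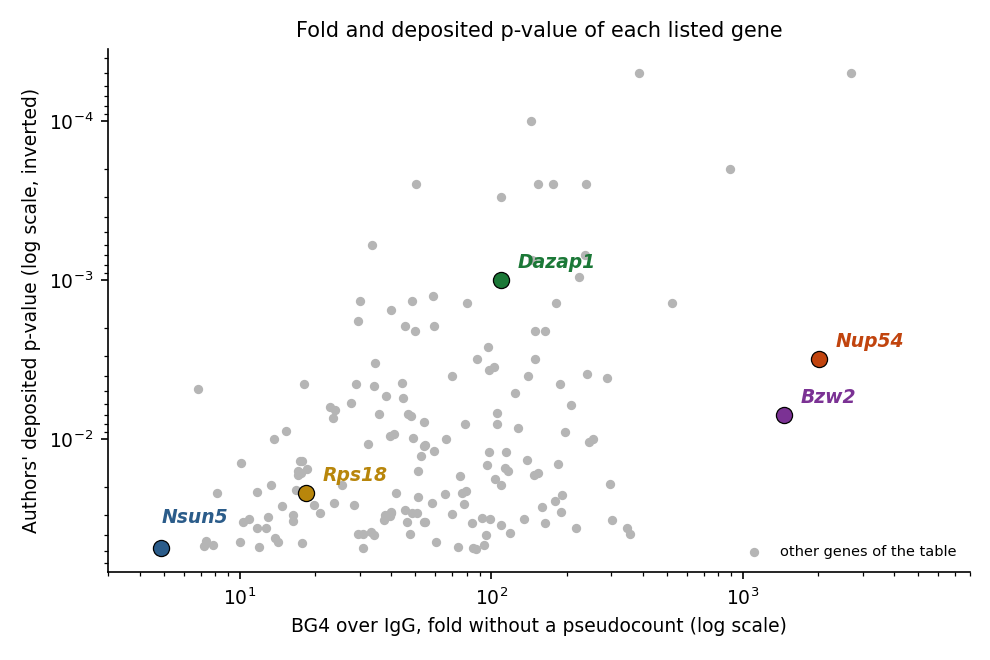
Authors' deposited p-value (log scale, inverted) against the fold of BG4 over IgG without a pseudocount (log scale) for 169 genes, with the 5 genes in colour. Dazap1, at 109.55-fold, sits above Nup54 (2011-fold) and Bzw2 (1454-fold), and Nsun5 sits at the lower left corner.

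The 5 genes differed in how far their values could hold reads of neighbouring genes. All 5 identifiers were found in GENCODE M21, an annotation of the same mm10 build. The deposited locus of Nsun5 (ENSMUSG00000000916.11, chr5:135369953-135394546) ran far beyond the annotated gene, which ends at 135376805 on the plus strand. It ended at the same base as Pom121, a membrane-anchored nucleoporin, annotated from 135376141 to 135394546 on the minus strand. Exons of Nsun5 and Pom121 shared 665 bases. Likewise the locus of Rps18 (ENSMUSG00000008668.10, chr17:33951999-33966984) took in 11173 bases of Vps52, a subunit of a vesicle-tethering complex on the opposite strand, while the annotated Rps18 gene ends at 33956001. Rps18 and Vps52 shared 156 exon bases. The sources used here do not say whether counting used strand, so reads of these pairs cannot be told apart, and the values of Nsun5 and Rps18 are uncertain for that reason.

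Dazap1 and Nup54 had loci equal to the annotated gene. Dazap1 (ENSMUSG00000069565.8, chr10:80261486-80288408, plus strand) shared 85 exon bases with the antisense transcript Gm15122 and holds the microRNA gene Mir6911 in an intron. Nup54 (ENSMUSG00000034826.10, chr5:92415540-92435219, minus strand) shared no exon bases with another gene. An intron of Nup54 holds Gm26039, a small Cajal body RNA of 144 bases on the opposite strand. Bzw2 (ENSMUSG00000020547.4, chr12:36091846-36156825, minus strand) also shared none, and its introns hold the pseudogene Gm18115 and the unclassified transcript Gm48369. In all, 3 of the 5 genes (60%) shared exon bases with another gene, against 57 of 170 (33.5%), and 0 of the 5 did so on the same strand, against 13 of 170 (7.65%). The locus reached beyond the annotated gene for 2 of the 5, against 42 of the 170 genes (24.7%).

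**Figure D5:**
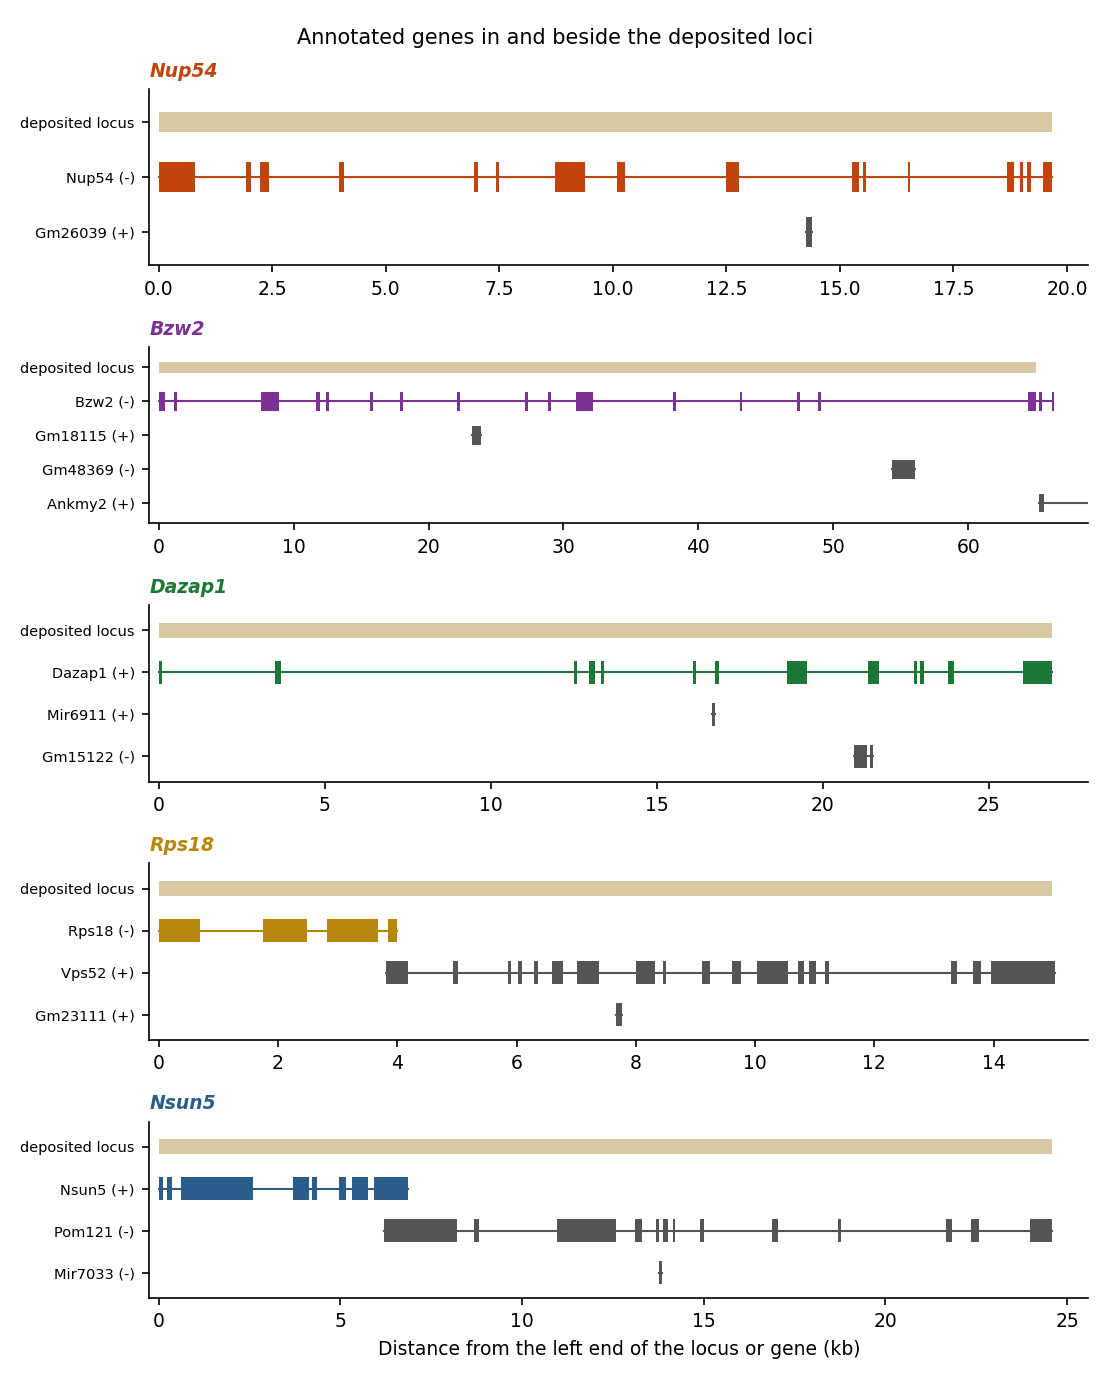
Deposited locus (tan), annotated exons (boxes) and genes (lines) against distance in kb from the left end, 1 panel per gene, with the strand of each gene in brackets. The loci of Rps18 and Nsun5 extend over Vps52 and Pom121, while those of Nup54 and Dazap1 end with the gene and that of Bzw2 ends inside it.

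The annotated transcripts of the 5 genes were varied in kind. The coding transcript of Rps18 is the shortest, 560 bases in 5 exons with 456 coding bases, between a 5′ UTR of 57 and a 3′ UTR of 47 bases. Those of Nup54 (2352 bases) and Nsun5 (2243 bases) are the longest of the 5, and Nsun5 has the shortest 5′ UTR, 31 bases, beside the longest 3′ UTR, 817 bases. Dazap1 has 2081 bases with a 3′ UTR of 700 bases, and Bzw2 has 1871 bases with one of 449 bases. Retained-intron transcripts made up 5 of 11 annotated for Rps18, 5 of 9 for Nsun5, 3 of 10 for Bzw2, 3 of 8 for Nup54 and 2 of 7 for Dazap1. The deposited value is 1 per gene and library, so it does not show which of these transcripts was recovered.

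Near-identical copies elsewhere in the genome also differed. Rps18 had 14 other genes whose transcripts matched at least 50% of its coding transcript at 90% identity or more, 11 of them annotated as pseudogenes, with identity of up to 99.3%. Nup54 had 1, the processed pseudogene Gm15790 on chromosome 1, which matched 53.3% of the transcript at 98.0% identity. Nsun5, Bzw2 and Dazap1 had 0. None of these copies was in the table (0 genes). The way reads were shared out among copies by the authors' counting is not stated, so the values of Rps18, and in part those of Nup54, are uncertain.

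Of the wider pathways, 6 lists with 251 genes, 9 genes (3.59%) were in the table. All 9 were above 2-fold, as were all 170 genes. The 5 chosen genes are among the 9, and without them the count was 4 of 246 (1.63%). Of all 21951 protein-coding genes, not limited to those expressed in forebrain, 163 (0.743%) were in the table. The lists were drawn up with earlier results of these data known, so nothing follows from these shares. Of 34 small-subunit ribosomal proteins only Rps18 was listed (1 of 34), and of 49 large-subunit proteins 0. Nsun5 was the single listed gene of 33 for ribosomal RNA modification and ribosome assembly. Dazap1 was the single one of the 48 genes listed as hnRNP and related RNA-binding proteins. That list is not complete, since the table also holds the RNA-binding proteins Pcbp4 and Safb, which are outside it. A gene that is not in the table has no known level here, because the table is a selection.

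Translation initiation held 3 of 49 genes and the nucleoporin and mRNA export list 3 of 38. Beside Bzw2, the initiation list had Eif3k, a subunit of the scaffold factor eIF3, with 13.4 FPKM with BG4 and 0.391 FPKM with IgG. Eif2b4, a subunit of the exchange factor that recharges eIF2, had 7.54 FPKM with BG4 and 0.265 FPKM with IgG. Bzw2 was 5.04 times higher with BG4 than Eif3k, the next of the list. Beside Nup54, the pore list had Nup85, a scaffold subunit of the outer ring, with 6.06 FPKM with BG4 and 0.0517 FPKM with IgG, and Xpo1, the exportin for proteins and several RNAs, with 3.92 FPKM with BG4 and 0.0953 FPKM with IgG. The log2 ratios with the pseudocount of 1 FPKM were 3.37 for Eif3k, 2.76 for Eif2b4, 2.75 for Nup85 and 2.17 for Xpo1. All 4 had 0 motifs with runs of 3 or more G in the longest transcript, and their GC content ran from 40.4% in Xpo1 to 56.8% in Eif2b4. In the authors' deposited table, the q-value of these 4 genes ran from 0.101 for Eif3k to 0.254 for Eif2b4.

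The genes whose pair of values lay nearest were found by the distance over log2 IgG and log2 BG4 values, across 2 libraries. Rps18 had close neighbours, Arhgef15 at a distance of 0.124 (8.92 FPKM with BG4 and 0.510 with IgG) and Pofut1 at 0.252. Dazap1 had Gm13936 at 0.253 and 2610020H08Rik at 0.275. Nup54 was farther from any gene, with Wdr44 at 0.787 and Ncapd2 at 1.06. Bzw2 had Znrf2 at 1.18 and Wdr44 at 1.38. Nsun5 had Pcbp4, a poly(C)-binding protein, at 1.24 (29.4 FPKM with BG4 and 1.81 with IgG) and the kinase Ilk at 1.33. Nup54 and Bzw2 shared Wdr44 (167 FPKM with BG4 and 0.0621 with IgG) among their nearest genes.

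Set side by side, motifs and folds of the 5 genes did not run in the same order. Nup54 and Bzw2 had the highest folds and 0 motifs in any annotated transcript. Dazap1 had 2 motifs and a middle fold of 109.55. Rps18 had 1 motif outside its coding transcript and a fold of 18.3. Nsun5 had 0 motifs, the highest G4Hunter score of the coding transcripts and the lowest fold, 4.89. With runs of 2 or more G, the longest transcripts held 8 motifs in Nup54, 5 in Bzw2, 19 in Dazap1, 5 in Rps18 and 6 in Nsun5. Whole loci with introns were not searched. With 5 genes of 1 library pair these are descriptions, and no relation was tested.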

How the data were processed

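RNA bound by BG4 or by normal rabbit IgG was sequenced from mouse forebrain, 1 library each, grouped by the antibody label. Per the labels' protocols, the kit was one for total RNA on Ion Torrent. Cufflinks and mm10 are named in the submitters' processing notes. Not given in the sources used here are its version, the aligner, the annotation, strand handling and the rule that left 170 genes. The values deposited by the authors were taken as FPKM from the Cuffdiff column layout, since the header names no unit. The log2 values deposited by the authors equal the log2 of those values and were not used further. Per the file headers, each gene also has the authors' p-value and q-value.

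Ratios were log2 of (BG4 + 1) over (IgG + 1), for genes with at least 1 FPKM in either library. Folds carry no pseudocount and leave out Timm10b (IgG 2.49e-05 FPKM). Locus starts count from 0, so 1 was added. All 170 identifiers matched GENCODE M21 without their version. The principal coding transcript is the APPRIS principal one with a CCDS entry, and the longest transcript may be non-coding. Percentiles use the longest transcript of each gene. Near copies were found with blastn 2.17.0 among all annotated transcripts. The motif search was run on simulated sequence with planted motifs and a background free of G, so its behaviour in guanine-rich sequence was not tested. Python 3.11.15, pandas 2.3.3, numpy 2.4.6 and matplotlib 3.10.9 were used.

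Genes named were the 5 members, the 2 nearest genes to each, the ends of the ratio range, genes sharing exons with a member, and listed pathway genes. The members and lists were chosen with earlier results of these data known. Alternatives were other pseudocounts, filters, scaling and motif definitions.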

Additional observations from a re-analysis of the deposited data

How the results depend on the processing

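No paired analysis was possible because each antibody had a single library. A change of over 1.5-fold was read as a move, for want of replicates. Counts over the principal coding transcript were chosen after the data were seen. Motifs over whole loci with introns were not run, as no genome sequence was used here. Depth is unknown, and how it limits low IgG values was not computed.

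With a pseudocount of 0.1 FPKM the log2 ratio became 9.99 for Nup54, 8.85 for Bzw2, 5.97 for Dazap1 and 3.96 for Rps18, and with none 10.97, 10.51, 6.78 and 4.20. Nsun5 did not move under either (2.26 and 2.29). These shifts follow from IgG values below 1 FPKM. With each library divided by its median before 1 was added, the log2 ratio was 3.99 for Nup54, 2.85 for Bzw2 and 0.56 for Dazap1, and turned to -1.07 for Rps18 and -3.02 for Nsun5. That scaling centres the table by construction. It left 2 members above 2-fold, with 2 lower by as much, against 5 as reported. It also turned Arhgef15 (-1.10), Dhx16 (-0.27), Eif2b4 (-0.54), Eif3k (-0.47), Ik (-0.26), Ilk (-1.66), Pcbp4 (-1.53), Pofut1 (-0.83), Pqlc1 (-1.84), Safb (-1.66), Smn1 (-0.0548) and Xpo1 (-0.15). The member count was 5 with a pseudocount of 0.1, none, no filter or 4-fold, and 4 with at least 10 FPKM. That filter left 5 of 9 list genes.

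Runs of 2 or more G gave 19 motifs in Dazap1, 8 in Nup54, 6 in Nsun5, 5 in Bzw2 and 5 in Rps18. In the principal coding transcript such motifs numbered 19 in Dazap1, 8 in Nup54, 6 in Nsun5, 3 in Bzw2 and 1 in Rps18. Of motifs with runs of 3 or more G, the principal coding transcript of Rps18 had 0, against 1 in the longest. Loops to 12 bases and joined exons changed no count of the 5 genes.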

Other observations

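Further genes of RNA handling or nuclear transport in the table lie outside the pathway lists, and 8 of them were chosen after their values were seen. Ipo13 and Ipo8, receptors that carry cargo into the nucleus, had 14.6 and 14.02 FPKM with BG4, against 0.0493 and 0.200 FPKM with IgG. Prpf8, the core protein of the spliceosome, had 7.33 FPKM with BG4 and 0.0707 FPKM with IgG, and the spliceosomal helicase Dhx16 had 4.05 FPKM with BG4 and 0.119 FPKM with IgG. Smn1, which acts in the assembly of spliceosomal particles, had 8.11 FPKM with BG4 and 0.158 FPKM with IgG, and the spliceosomal protein Ik had 7.74 FPKM with BG4 and 0.196 FPKM with IgG. Safb, a nuclear RNA-binding protein, had 11.7 FPKM with BG4 and 0.979 FPKM with IgG, the highest IgG value of the 8. Trmt10b, a tRNA methyltransferase, had 4.65 FPKM with BG4 and 0.0798 FPKM with IgG. Folds without a pseudocount ran from 11.96 for Safb to 297 for Ipo13, all below those of Nup54 and Bzw2. Of the table as a whole, Pqlc1 had the lowest log2 ratio with the pseudocount of 1 FPKM, 1.82. Nsun5 ranked 164 of 170, at 2.02.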
